A study of Caenorhabditis elegans with 2 samples.

Results

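The genes examined are the nuclear transfer RNA (tRNA) genes of Caenorhabditis elegans, taken as every gene that the Ensembl annotation of the WBcel235 genome types as tRNA on the 6 nuclear chromosomes. There were 612 of them among 46890 annotated nuclear genes, and 276 (45.1%) lay on X. For each, the nearest binding summit of OEF-1 within 250 bp was taken from each of 4 deposited peak lists, and the genes were then compared by isotype, anticodon, copy number, clustering and position in or between coding genes. OEF-1 (F49E8.2, oocyte-excluded factor) is a nuclear protein of the C. elegans germline. The lists come from chromatin immunoprecipitation and sequencing (ChIP-seq) with an antibody against GFP in whole hermaphrodites of strain OP383, which carries the transgene wgIs383 with a GFP-FLAG tag at the C-terminal end of OEF-1, in an unc-119(tm4063) III background. The animals were L4 larvae at 52 h after release from starvation at the first larval stage. There was 1 group of 2 samples, biological replicates 3 and 4, and no sample of another strain, stage or treatment. The animals were not dissected, so germline and somatic chromatin cannot be told apart.

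A tRNA carries an amino acid to the ribosome and reads the codon with its anticodon. tRNA genes are transcribed by RNA polymerase III from a promoter inside the gene, made of an A box and a B box that TFIIIC binds, after which TFIIIB is placed upstream of the gene. A run of T on the coding strand after the gene ends transcription. Animal genomes hold many tRNA genes of identical sequence, so that 1 mature tRNA can have several gene sources.

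The mature sequences below are those of 7 families of identical genes that differed widely in how many of their genes had a summit. They were read from the WBcel235 genome, 5′ to 3′ on the coding strand. The capitals mark, in order, the A box (TNGNNNA), the anticodon, and the start of the T loop within the B box (GTTCNA). The first 3 families have 15 identical genes each, of which 14, 6 and 3 had a summit in the optimal list. The Pro TGG family has 24 genes, 10 with a summit, and the Arg ACG, Phe GAA and Leu AAG families have 10, 10 and 9 genes, of which 5, 2 and 1 had one.
Ala AGC: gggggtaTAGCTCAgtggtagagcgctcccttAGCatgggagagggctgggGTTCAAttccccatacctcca
Thr AGT: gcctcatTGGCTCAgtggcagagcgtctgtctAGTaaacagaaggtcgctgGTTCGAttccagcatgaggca
Gln TTG: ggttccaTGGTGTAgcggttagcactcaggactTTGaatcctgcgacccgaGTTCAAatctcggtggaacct
Pro TGG: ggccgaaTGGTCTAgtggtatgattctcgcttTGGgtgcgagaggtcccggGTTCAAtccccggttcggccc
Arg ACG: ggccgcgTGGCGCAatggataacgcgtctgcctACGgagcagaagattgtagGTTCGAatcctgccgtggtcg
Phe GAA: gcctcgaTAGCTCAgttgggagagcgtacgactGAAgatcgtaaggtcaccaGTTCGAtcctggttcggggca
Leu AAG: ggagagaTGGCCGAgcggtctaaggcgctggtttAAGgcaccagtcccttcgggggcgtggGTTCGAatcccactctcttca

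Of the 612 tRNA genes, 214 (35.0%, exact 95% interval 31.2 to 38.9) had a summit of the optimal list within 250 bp, against 4.00% of all annotated nuclear genes. The optimal list is the set of peaks that the authors kept after an irreproducible discovery rate filter, and 1318 of its peaks are nuclear. A gene near such a peak need not have a summit in the list of each replicate. An interval of 72 bp, the median tRNA gene length, had such a summit at 0.725% of all possible places on the nuclear chromosomes. Among an equal number of top peaks from each replicate alone, 197 tRNA genes (32.2%) had a summit in replicate 3, against 3.96% of all genes. In replicate 4 there were 217 (35.5%), against 4.01% of all genes. Since the genes are members of 1 genome and the samples form 1 group, no test was run. The intervals cover counting error only. No sample of an untagged strain was analysed here, so the level that the antibody gives at tRNA genes without the tag is not known.

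tRNA genes stood apart from annotated tRNA pseudogenes, the 209 degenerate copies in the same annotation. Only 4 of these (1.91%, interval 0.524 to 4.83) had an optimal summit. In the top peaks of replicate 3 there were 4 pseudogenes with a summit, and in those of replicate 4 there were 4. The TTTT run in the 50 bp after the gene was present at 98.9% of tRNA genes and 92.8% of pseudogenes, and the A box at 92.3% and 92.8%. The GTTCNA letters were present in 96.1% of tRNA genes and 80.4% of pseudogenes. The full B box letters GTTCGANTC were present in 44.8% and 30.1%. Of the 32-base words in the gene and 250 bp on each side, a median of 89.7% occurred once in the genome at tRNA genes, against 98.3% at pseudogenes. On chromosome V lay 91 of the 209 pseudogenes, none with an optimal summit. The 4 pseudogenes with a summit were T08B2.t1, K10B2.t1, D1046.t1 and ZK380.t2, with signals of 133, 79.8, 131 and 79.2 in that order.

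**Figure D1:**
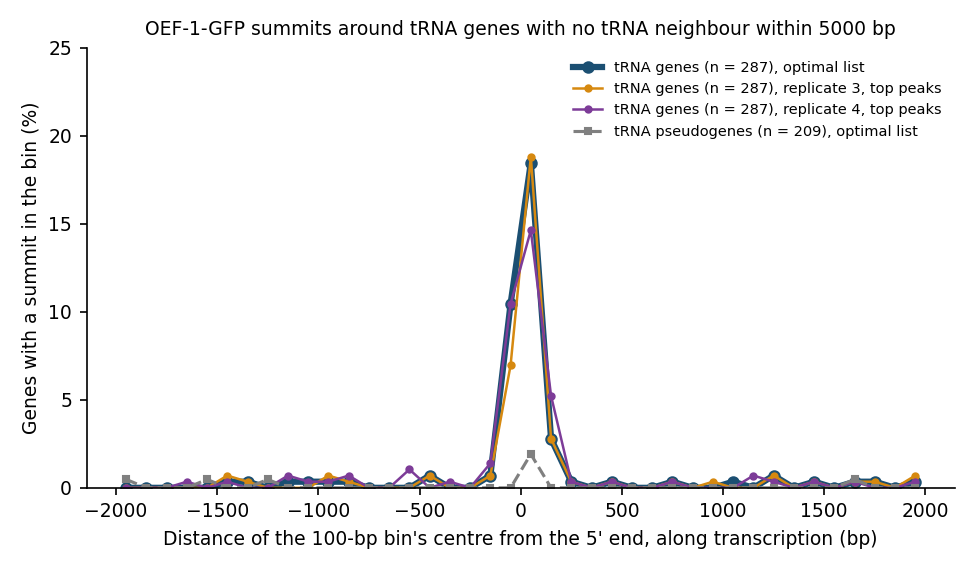
Share of genes (y axis, percent) with at least 1 summit in each 100-bp bin of distance from the annotated 5′ end along transcription (x axis, bp), for the 287 tRNA genes with no other tRNA gene within 5000 bp and for the 209 tRNA pseudogenes. Lines stand for the optimal list and each replicate's top peaks; in the optimal list the bin starting at the 5′ end holds a summit at 18.5% of these tRNA genes and at 1.91% of pseudogenes.

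The summits lay on the tRNA genes themselves or just beside them. The nearest optimal summit had a median position 22 bp downstream of the annotated 5′ end, with quartiles from -19.8 to 66 bp. It was inside the gene for 92 of the 214 genes, upstream for 77 and downstream of the 3′ end for 45. For the isolated genes alone, with no other tRNA gene within 1000 bp, 65 of 124 summits were inside the gene, 35 upstream and 24 downstream. In the top peaks of replicate 3 the median was 17 bp, and in those of replicate 4 it was 11 bp. The optimal peaks had a median width of 440 bp, which is longer than a tRNA gene, so that these positions do not separate the A box, the B box and the upstream region.

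Most of the remaining tRNA genes had weaker candidates. In the whole pooled list, which keeps background on purpose, 503 genes (82.2%) had a summit within 250 bp, against 35.4% of all genes and 62 of 209 pseudogenes (29.7%). In the whole list of replicate 3 there were 506 (82.7%), against 35.8% of all genes, and in that of replicate 4 there were 471 (77.0%), against 32.4%. For 289 genes there was a pooled candidate but no optimal summit, and the median rank of these lay at 8.61% of the pooled list, counted from the strongest. The list sets the limit, since the optimal peaks are the pooled candidates of highest signal. The weakest tRNA genes inside were F35H8.t1 (Arg TCG, signal 74.2) and Y69A2AR.t2 (Glu TTC, 74.2), and the strongest outside were C48C5.t6 (Trp CCA, 73.8) and F22F1.t8 (Ser AGA, 73.7). In none of the 4 lists was there a summit near 62 genes.

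In signal, the summits at tRNA genes lay more toward the weaker end of the optimal list. Counted from the strongest, their median rank was at 58.2% of it, with quartiles at 40.6% and 77.0%. The nearest optimal summit had a median signal of 96.8 (lowest 74.2, highest 283), against 103 over all nuclear optimal peaks. In all, 186 optimal summits (14.1% of the nuclear ones) lay within 250 bp of a tRNA gene. Of these, 158 were near 1 tRNA gene, 27 near 2 and 1 near 3. The unit of the signal is the authors' own and is not stated, and it is used here only to rank peaks within a list.

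The strongest summit at a tRNA gene was that of M01E5.t1, a Lys CTT gene at 13297673 to 13297745 on chromosome I, outside coding genes. Its signal was 283, rank 35 of the nuclear optimal list, 187 in replicate 3 and 96.4 in replicate 4, and the summit lay 115 bp upstream of the gene. Next came F15G9.t2 (Ala AGC) and F15G9.t1 (Ala TGC), a pair on X in an intron of him-4 (X:9743589-9743818), which codes for the matrix protein hemicentin. Their shared summit had a signal of 220, 163 in replicate 3 and 59.1 in replicate 4. T23F1.t2 (Pro TGG) and T23F1.t1 (Lys TTT) are a convergent pair on V with a shared summit of 206 between them. Y7A9D.t2 (Ala AGC, IV) had 184, with 129.8 in replicate 3 and 54.8 in replicate 4, and R04D3.t2 (Val TAC, X) had 180, with 96.2 and 82.3 in the same order. Replicate 3 gave the him-4 pair more signal than R04D3.t2, and replicate 4 gave it less. M02F4.t1 (Gly TCC) and M02F4.t2 (Glu CTC) on X shared a summit of 172, and the Pro TGG pair F46G11.t1 and F46G11.t2 on X shared one of 161. All of these genes were also near a top peak in each replicate.

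The replicates agreed in part on which tRNA genes were marked. Near a top peak were 141 genes in both replicates, 56 in replicate 3 only and 76 in replicate 4 only. Of the 214 genes with an optimal summit, 138 were near a top peak in both, 45 in replicate 3 alone, 26 in replicate 4 alone and 5 in neither. Over the 431 genes with a summit in both whole lists, the rank of the nearest summit had a Spearman correlation of 0.54 across genes, which are not replicates and can share a summit. Some genes went against each other: 25 were in the top 10% of the list of replicate 3 with no summit in replicate 4, and 18 the other way round. The first kind is led by C06B8.t1 (Ala CGC, V), with a signal of 59.96 in replicate 3, and by K11E4.t5 (Lys CTT, X), with 59.4. F42F12.t1 (Leu CAA), F25F6.t1 (Glu TTC) and R04E5.t3 (Gly TCC), all on X, follow with 57.8, 57.6 and 57.2. The second is led by C02B4.t2 (Tyr GTA, X), with 41.5 in replicate 4, and by C16D9.t4 (Tyr GTA, V), with 36.6. F17A2.t1 (Arg TCG, X), F52H2.t2 (Asn GTT, X) and F57G8.t4 (Asn GTT, V) follow with 33.2, 30.9 and 29.6. Of the genes named here, K11E4.t5, F25F6.t1, C02B4.t2 and F52H2.t2 had an optimal summit although 1 replicate gave none. Their optimal signals were 74.9, 76.3, 87.6 and 96.6 in that order. The whole list of replicate 4 was shorter, with 23577 nuclear peaks against 29982 in replicate 3. How all annotated genes split between the replicates in these ways was not computed. Whether tRNA genes differ from other genes in this agreement is therefore not known.

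Isotypes differed in how many of their genes were marked. The RefSeq annotation gave an isotype for 607 genes. An anticodon, found as 3 bases in a 7-base loop closed by a stem, was matched in 597 genes and decoded to the annotated isotype in 593. Of the 20 isotypes with at least 10 genes, Ala had the highest share, with 22 of 34 genes (64.7%, interval 46.5 to 80.3). Its shares were 58.8% in replicate 3 and 55.9% in replicate 4, the highest of these isotypes in each. Asp followed with 13 of 27 (48.1%) and Thr with 16 of 34 (47.1%). The lowest were Phe with 2 of 14 (14.3%, interval 1.78 to 42.8) and Trp with 2 of 12 (16.7%), followed by Asn, His and Met with 4 of 20 each (20%). The interval of Ala overlaps those of Asp and Thr and lies above that of Phe. With 12 to 20 genes in each of the low isotypes, the intervals are wide, and their order is not resolved. Some of their genes hold little unique sequence, down to 4.44% unique 32-base words among His and 26.8% among Phe genes. The medians were 89.3% for His and 89.9% for Phe, against 90.9% for Ala.

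**Figure D2:**
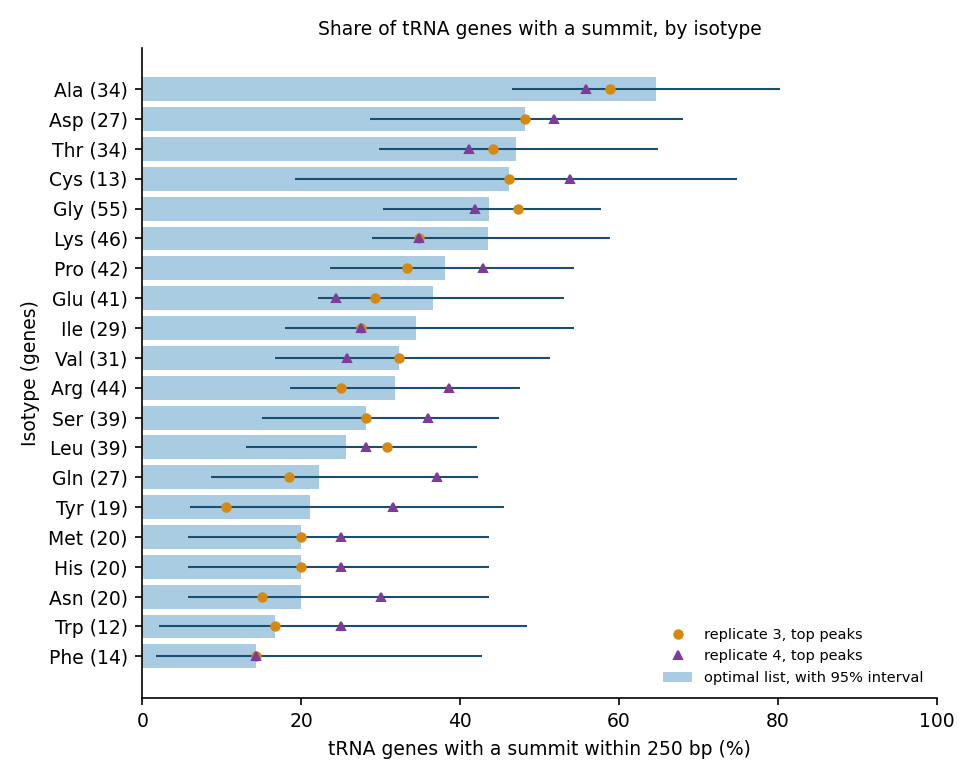
Share of tRNA genes with a summit within 250 bp (x axis, percent) for each isotype with at least 10 genes (y axis, number of genes in brackets). Bars give the optimal list with its exact 95% interval, circles the top peaks of replicate 3 and triangles those of replicate 4; Ala stands at 64.7% and Phe at 14.3%.

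Within an isotype, shares varied between anticodons, with few genes behind most of them. Of Ala genes, 16 of 21 with anticodon AGC had an optimal summit (76.2%, interval 52.8 to 91.8), as did 4 of 8 with TGC (interval 15.7 to 84.3) and 2 of 4 with CGC. These intervals overlap, and AGC was not the highest in either replicate alone: it stood at 61.9% against 75% for CGC in replicate 3, and at 57.1% against 62.5% for TGC in replicate 4. Of Gly genes, 21 of 36 with TCC had one (58.3%, interval 40.8 to 74.5), against 3 of 15 with GCC (20%, interval 4.33 to 48.1) and 0 of 3 with CCC. In replicate 4 the Gly shares were closer, at 47.2% for TCC and 40% for GCC, and in replicate 3 they were 63.9% and 20%. The CCC genes held a median of 46.6% unique words (25.2 to 46.9%), against 81.9% for TCC and 90% for GCC. None of the 3 CCC genes had a pooled candidate, and the part that read placement has in this was not tested. Of Leu genes, 2 of 19 with AAG had one (10.5%), against 8 of 18 with the other anticodons CAA, CAG, TAA and TAG. Of Glu genes, 11 of 24 with CTC had one (45.8%) and 4 of 17 with TTC (23.5%). The Met genes divide by the base before the anticodon, which is C in the initiator tRNA that starts translation and T in the elongator. An optimal summit was found at 3 of 10 initiator-type genes and 1 of 9 elongator-type genes. The counts were the same in replicate 3 and in the other order in replicate 4, with 2 of 10 and 3 of 9, so no difference is resolved. The single gene for selenocysteine, K11H12.t1 (IV:658181-658266), which reads UGA as an amino acid, had a summit 62 bp upstream with a signal of 109, 79.9 in replicate 3 and 33.8 in replicate 4.

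Genes in which the search matched no anticodon, or whose anticodon went against the annotation, were not marked in the optimal list. None of the 15 genes without an anticodon match had an optimal summit (0%, interval 0 to 21.8), and 2 of the 15 had a pooled candidate. The 3 genes whose anticodon did not decode to the annotated isotype and the 5 with no annotated isotype also had none.

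tRNA genes with identical copies were marked more often than those of unique sequence. The 612 genes held 188 distinct mature sequences, of which 130 occurred once and 58 were shared by 482 genes. A summit was found at 186 of the 482 genes with identical copies (38.6%, interval 34.2 to 43.1) and at 28 of the 130 genes of unique sequence (21.5%, interval 14.8 to 29.6), a difference of 17.1 percentage points (95% interval 8.15 to 24.7). It was 16.5 points in the top peaks of replicate 3 and 16.7 in those of replicate 4. The share was 32.4% for genes with 2 to 4 copies, 32.9% for 5 to 9, 35.2% for 10 to 19 and 52.1% for 20 or more, so the rise was not even. Among autosomal genes alone the difference was 16.4 points.

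The unique sequences were of different kinds. Those 1 or 2 edits from another tRNA sequence had a summit at 23 of 78 genes (29.5%, interval 19.7 to 40.9). At 3 to 10 edits it was 4 of 34 (11.8%) and beyond 10 edits 1 of 18 (5.56%, interval 0.141 to 27.3). That 1 gene was the selenocysteine tRNA gene. How well reads can be placed moves with copy number: the median share of unique 32-base words was 89.5% at genes with identical copies and 93.5% at genes of unique sequence. Among genes with 85 to 95% unique words, a range chosen after seeing the data, the difference fell to 4.94 points, with shares of 39.0% and 34.0%. The range also changes which unique-sequence genes are compared. Their median share of unique words was 93.0% at 1 or 2 edits and 100%, outside the range, beyond 10 edits. The part that read placement has in the difference was not tested.

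The 33 families of 5 or more identical genes spanned a wide range. The lowest share with an optimal summit was 11.1% and the highest 93.3%, with a median of 36.4%. Every one of these families had both genes with and genes without an optimal summit. In the 5 most numerous families, the count was 18 of 29 for Gly TCC, 13 of 25 for Lys CTT, 10 of 24 for Pro TGG, 11 of 21 for Asp GTC and 10 of 20 for Glu CTC. For Gly TCC the top peaks gave 20 genes in replicate 3 and 15 in replicate 4. Family size and share had a Spearman correlation of 0.31 over the 33 families. The shares in the top peaks of the 2 replicates had one of 0.65, over families that share chromosomes and control reads.

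**Figure D3:**
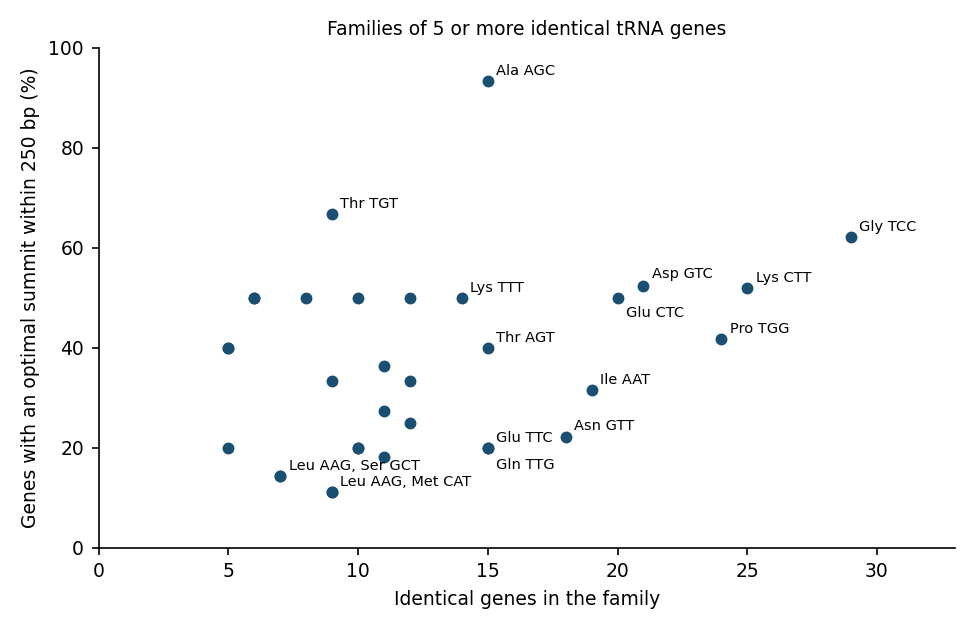
Share of genes with an optimal summit within 250 bp (y axis, percent) against the number of identical genes (x axis) for the 33 families of 5 or more identical tRNA genes, 1 point per family, some overlaid. Ala AGC stands at 93.3% with 15 genes, while Gln TTG and Glu TTC, with as many genes, stand at 20%.

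The Ala AGC family stood highest, and it was picked out after its values were seen. Of its 15 genes, 14 had an optimal summit (93.3%), 12 were near a top peak of replicate 3 and 10 near one of replicate 4. The strongest pooled summit within 250 bp ranged from 54.9 to 220 with a median of 112 over the 15 genes. In the Thr AGT family, also of 15 genes, 6 had an optimal summit, with 5 in replicate 3 and 6 in replicate 4. In the Gln TTG family of 15 there were 3, with 3 in replicate 3 and 6 in replicate 4. The strongest pooled summits had a median of 70.3 over the 14 Thr AGT genes that had any and of 51.9 over the 12 such Gln TTG genes, and both ranges overlap that of Ala AGC. The signals of F15G9.t2 (220), Y7A9D.t2 (184) and T18D3.t1 (133) led the Ala family, and they lie on X, IV and X.

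**Figure D4:**
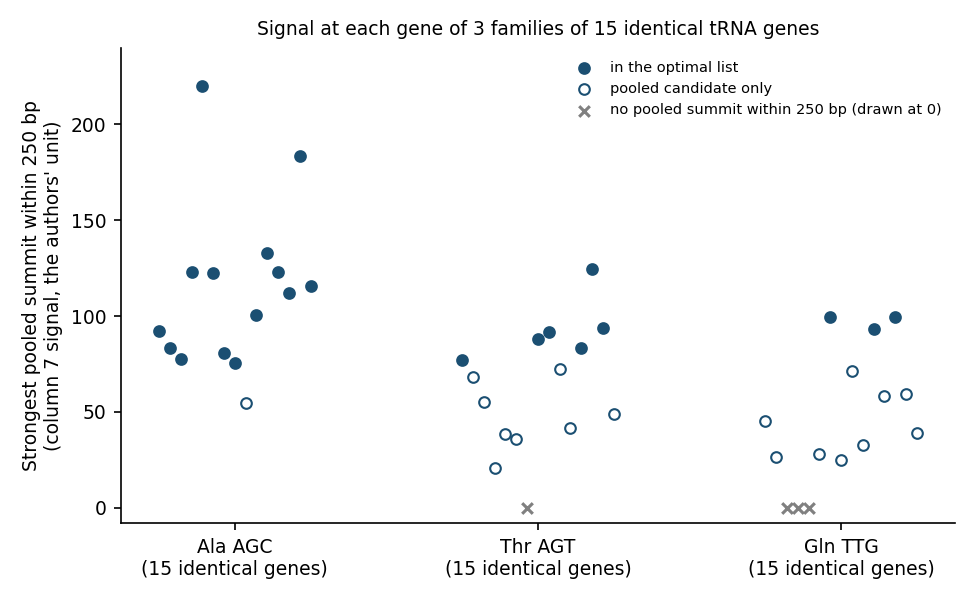
Signal of the strongest pooled summit within 250 bp (y axis, the authors' unit) at each gene of 3 families of 15 identical tRNA genes (x axis). Filled points are genes in the optimal list, open points are genes with a pooled candidate only, and crosses at 0 are genes with none; all but 1 of the Ala AGC points are filled.

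The Ala gene without an optimal summit was M03A1.t1 on II, with a pooled signal of 54.9, 44.7 in replicate 3 and 10.4 in replicate 4. It is shown beside T18D3.t1, a marked copy on X whose summit lay 7 bp upstream of the gene (signal 133, 76.7 in replicate 3 and 57.5 in replicate 4). Each is printed on its own coding strand with 40 bases on each side, X:12458136-12458287 on the minus strand and II:4565349-4565500 on the plus strand of WBcel235, and the capitals mark the gene. The gene sequences are the same, and the flanks match at 11 of 40 positions upstream and 16 of 40 downstream. Both have a T run close after the gene.
T18D3.t1: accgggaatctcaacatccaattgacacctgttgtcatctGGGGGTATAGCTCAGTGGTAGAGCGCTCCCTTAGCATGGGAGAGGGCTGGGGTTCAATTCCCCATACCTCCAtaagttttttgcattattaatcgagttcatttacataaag
M03A1.t1: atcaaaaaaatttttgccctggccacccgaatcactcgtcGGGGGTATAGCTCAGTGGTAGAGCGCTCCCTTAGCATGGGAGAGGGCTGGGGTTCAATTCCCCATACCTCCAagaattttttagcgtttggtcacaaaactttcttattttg

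Within families, marked and unmarked copies had close values in several measures, and a smaller share of the marked copies lay on V. Over the 33 families, 164 genes with an optimal summit and 250 without had medians of 89.6% and 89.5% unique words. Introns of coding genes held 46.3% of the marked and 46.0% of the unmarked copies, and 43.3% and 42.4% had another tRNA gene within 1000 bp. The flanking 250 bp on each side had a median G + C of 36.7% and 35.4%. The median distance to the nearest 5′ end of a coding gene was 1664.5 and 1862.5 bp. On X lay 50% of the marked and 46.0% of the unmarked copies, and on V 4.88% and 15.2%.

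tRNA genes on V were marked less often than those on the other chromosomes as a whole. V had the lowest share of the 6 chromosomes in the optimal list and in replicate 3, while in replicate 4 the lowest was that of I (18.2%). Of its 78 tRNA genes, 11 had an optimal summit (14.1%, interval 7.26 to 23.8), against 203 of 534 elsewhere (38.0%, interval 33.9 to 42.3). The V share was 12.8% in replicate 3 and 20.5% in replicate 4, against 35.0% and 37.6% elsewhere. It was low in the middle of the chromosome (6 of 46 genes in the middle 50%) and in its outer parts (5 of 32). To compare like sequences, V genes with an identical copy on another chromosome were taken alone. Of 53 such genes, 9 had a summit, where the share among their copies elsewhere would give 25.1. In replicate 3 there were 7, where copies elsewhere would give 22.2, and in replicate 4 there were 12, against 24.3. The median share of unique words was 90.2% on V and 89.7% elsewhere. The 11 genes include the pair T23F1.t2 and T23F1.t1 and the pair T22F3.t4 and T22F3.t1 (Pro TGG, shared signal 119).

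The other autosomes varied as well. The share was 27.3% on I, 42.1% on II, 35.9% on III and 45.1% on IV. In the top peaks of replicate 3 it was 24.2%, 33.3%, 37.5% and 42.3% on I to IV in that order, and in those of replicate 4 it was 18.2%, 43.9%, 32.8% and 39.4%. Of 52 genes on I with an identical copy on another chromosome, 17 had an optimal summit, where the share among their copies elsewhere would give 21.1. In replicate 3 there were 16, where copies elsewhere would give 21.1, and in replicate 4 there were 11, against 19.6. On X it was 106 of 276 genes (38.4%, interval 32.6 to 44.4), against 108 of 336 on the autosomes (32.1%, interval 27.2 to 37.4), a difference of 6.26 points (95% interval -1.32 to 13.8). Without V the autosomes stood at 37.6% and the difference was 0.809 points. Of 195 genes on X with an identical copy on another chromosome, 84 had an optimal summit, where copies elsewhere would give 72.4. In replicate 3 there were 81, where copies elsewhere would give 64.9, and in replicate 4 there were 91, against 69.9. The same comparison gave 28 of 54 genes on IV against 22.1, 18 of 40 on II against 15.4 and 21 of 53 on III against 21.8. In replicate 3 it gave 26 against 20.7 on IV, 14 against 15.7 on II and 22 against 20.8 on III. In replicate 4 it gave 25 against 22.4, 17 against 16.2 and 19 against 21.9 in the same order. For all of these chromosomes, the copies elsewhere include those on V.

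tRNA genes in introns and outside coding genes did not differ beyond counting error. An optimal summit was found at 94 of 283 tRNA genes in introns of coding genes (33.2%) and at 117 of 319 outside coding genes (36.7%), a difference of -3.46 points (95% interval -11.0 to 4.17). In replicate 3 the difference was -2.80 points and in replicate 4 it was -6.72. In introns, the share was 29.8% of 161 genes on the strand of the host gene and 37.7% of 122 on the opposite strand, with overlapping intervals. Of 10 genes that overlap exons, 3 had a summit. With the nearest 5′ end of a coding gene within 500 bp, 32 of 104 tRNA genes had a summit (30.8%, interval 22.1 to 40.6). Beyond 500 bp and up to 2000 bp it was 94 of 235 (40%, interval 33.7 to 46.6), and at over 2000 bp 88 of 273 (32.2%, interval 26.7 to 38.1).

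The intron-borne genes sat in 219 host genes. The hosts with most were K01A12.3, with 5 tRNA genes (Arg and Cys) of which 3 had an optimal summit, and ajm-1, which codes for an apical junction protein, with 5 Gln genes of which 2 had one. A further 12 hosts held 3 each. Among them brd-1, the partner of the BRCA1 homolog, had a summit at all 3 of its tRNA genes (Lys TTT, Gly TCC and Gly TCC on III), with signals of 124 at K04C2.t3 and 91.4 at the pair K04C2.t2 and K04C2.t1. All 3 were near a top peak in each replicate. At wrt-9, pash-1, pxn-1, spe-9 and srxa-9 none of the 3 had an optimal summit. The 3 in pash-1 are the Gly CCC genes counted above, with 25.2 to 46.9% unique words and no pooled candidate.

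The difference between clustered and isolated tRNA genes had opposite signs on X and on the autosomes in the optimal list and in each replicate's top peaks, but not in the whole pooled list. Clusters were taken as runs of tRNA genes with gaps of at most 1000 bp, which gave 100 clusters holding 236 genes. Over all chromosomes, 90 of 236 clustered genes (38.1%) and 124 of 376 isolated genes (32.98%) had an optimal summit, a difference of 5.16 points (95% interval -2.56 to 13.0). On the autosomes it was 47 of 101 clustered genes (46.5%) and 61 of 235 isolated genes (25.96%), a difference of 20.6 points (95% interval 9.43 to 31.6), with 18.7 points in replicate 3 and 21.7 in replicate 4. On X it was 43 of 135 clustered genes (31.9%) and 63 of 141 isolated genes (44.7%), a difference of -12.8 points (95% interval -23.8 to -1.35). On X the replicates alone gave -8.61 and -4.71 points, and their intervals include 0. In the whole pooled list the difference was positive on both, at 5.82 points on X (95% interval -2.99 to 14.5) and 18.7 on the autosomes (95% interval 10.6 to 25.4). The contrast between X and autosomes was not tested.

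Neighbours can share a summit, which raises the count in clusters. When each summit was given to its nearest tRNA gene only, the difference on the autosomes was 6.72 points (95% interval -3.56 to 17.7) and on X it was -23.2 points (95% interval -33.4 to -12.2). This rule can lower the count only in clusters, where neighbours can then no longer share a summit. Marked clustered genes fell from 47 to 33 on the autosomes and from 43 to 29 on X. Marked isolated genes stayed at 61 and 63. Neither way of counting gives a corrected value. On the autosomes without V the difference was 17.8 points with shared summits and 4.05 without. The split by chromosome was made after seeing the data. Median unique words were 86.7% at clustered and 90.1% at isolated genes, and their part in these differences was not tested.

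**Figure D5:**
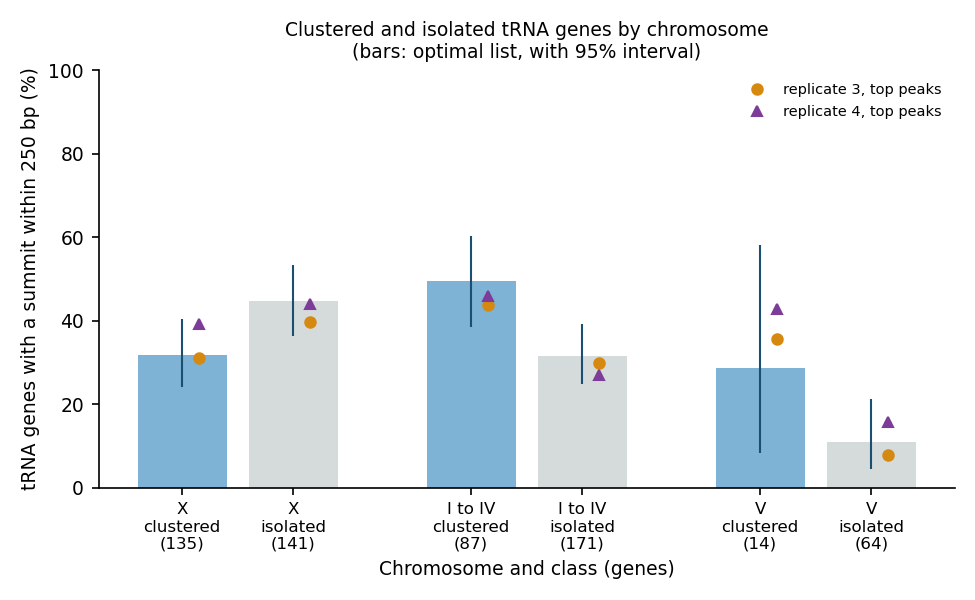
Share of tRNA genes with a summit within 250 bp (y axis, percent) for clustered and isolated genes on X, on chromosomes I to IV and on V (x axis, number of genes in brackets). Bars give the optimal list with its exact 95% interval, circles replicate 3 and triangles replicate 4; on X the clustered genes stand at 31.9% and the isolated ones at 44.7%, on V at 28.6% and 10.9%.

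Single clusters were marked whole or not at all more often than in part, but 1 summit marks every gene within 250 bp. The counts that separate marking of each gene would give were not computed. Of the 100 clusters, 50 had no gene with an optimal summit, 27 had one at every gene and 23 at some. Of the 78 pairs, 25 had both genes marked, 20 of them by 1 shared summit, 11 had 1 gene marked and 42 had none. The 2 largest clusters hold 6 genes each, on X, and none of the 12 had an optimal summit. They are F22F1.t2 to F22F1.t7 (Ser, Asp, Met and Ile, X:8154445-8156707) and a run of 6 His genes in alternating directions at F28H6 (X:14135045-14137010). In replicate 4, 2 genes of the F22F1 cluster were near a top peak. The His run is poor in unique sequence, with 4.44 to 78.7% unique words per gene, against 74.4 to 89.8% in the F22F1 cluster. Without these 12 genes, X had 35.0% of clustered genes marked, and the difference from the isolated ones was -9.72 points (95% interval -21.1 to 2.12).

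Smaller clusters varied. The 5 Gln genes in ajm-1 (H08J11.t5 to H08J11.t3) had 2 marked by 1 summit, and the 5 genes in K01A12.3 had 3 marked by 1 summit. Of the clusters of 4, Y65A5A.t1 to Y65A5A.t4 on IV (Ala, Ala, Val, His) had 3 genes marked by 3 summits, the strongest pooled signal being 144. T01B4.t1 to T01B4.t4 on X (4 Val genes) had 2, R11.t4 to R11.t1 on X (4 Tyr genes) had 1 and C12C8.t5 to C12C8.t3 on I (4 Gly genes) had none. All 4 genes of the last had a pooled candidate, up to a signal of 65.0.

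The share of marked genes was close with and without the full B box letters. The full B box letters GTTCGANTC, searched on the coding strand of the mature sequence, were present in 274 genes (44.8%), of which 97 had an optimal summit (35.4%). This is a strict pattern, and a gene that fails it need not lack a B box. The Ala AGC, Gln TTG and Pro TGG sequences printed above have GTTCAA and do not match it. Of the 338 other genes, 117 had one (34.6%), a difference of 0.786 points (95% interval -6.74 to 8.38). The A box letters TNGNNNA at bases 8 to 14 or a base to either side were in 565 genes, of which 201 were marked (35.6%), against 13 of 47 others (27.7%). The shorter GTTCNA, which the full B box contains, was in 588 genes with 208 marked (35.4%), against 6 of 24 others (25%). A TTTT run within 50 bp after the gene was present at 605 genes, 213 of them marked, and 1 of the 7 others was marked. An intron in the tRNA gene itself was present in 29 genes, of which 9 were marked (31.0%). The share by flanking G + C, in 4 classes of about equal size from the lowest up, was 28.0%, 34.7%, 42.4% and 35.3%.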

How the data were processed

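The authors deposited peak lists in which each peak has a signal value of unstated scale and a summit offset. Per the README texts, each replicate's candidate list came from its own alignment and 1 control file shared by both, the pooled list from both alignments, and the optimal list from an irreproducible discovery rate filter. No label or README names the aligner, the caller or their versions, and the depth is unknown. No control or untagged sample was analysed here. The ce11 lists were used with the WBcel235 genome, the same assembly, Ensembl release 115 genes and RefSeq isotypes; all summits lay inside the chromosomes.

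For each tRNA gene the summit nearest to its span within 250 bp was taken. Replicates were compared by their 1339 strongest peaks, as many as the optimal list holds, of which 1322 and 1316 were nuclear in replicates 3 and 4. In the pooled list the nearest summit was not the strongest in reach for 25 genes. Anticodons needed at least 4 of 5 stem pairs, with T before the anticodon or C before CAT. Shares carry exact (Clopper-Pearson) 95% intervals and differences Newcombe intervals, over genes, which are not replicates. The nearest-summit search was checked on a small made-up example with summits placed at known distances. Python with NumPy, pandas, SciPy and edlib was used.

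The members and lists were chosen with earlier results of these data known. Named genes are the 10 with the strongest optimal summit, the 5 largest families, the 3 isotypes at each end (with ties), the largest clusters and hosts (with ties), and up to 5 genes per replicate in its top 10% and absent from the other. Other names, the pseudogene comparison, the copy number and edit classes, the C before CAT and the splits by chromosome were chosen after seeing the data.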

Additional observations from a re-analysis of the deposited data

Results flagged for a closer look

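Outside the nuclear genes, 10 of the 22 mitochondrial tRNA genes had an optimal summit within 250 bp. They drew attention because mitochondrial DNA was not part of any comparison here, and 21 optimal peaks lie on it. The share of all mitochondrial genes or places within 250 bp of these peaks was not computed. The count is therefore not read as a result about tRNA genes. Whether these peaks differ from the control reads was not analysed here.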

How the results depend on the processing

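The count of 214 marked tRNA genes was 186 to 226 with summits within 100 or 500 bp, peak overlap or each summit given to its nearest gene. It was 84 with the 659 strongest optimal peaks and 503 with the whole pooled list. One replicate's top peaks gave 197 to 217 marked genes, differences of -6.72 to -2.80 points for introns, 6.23 to 10.6 for clusters, 16.5 to 16.7 for identical copies, 6.04 to 11.3 for X and 0.559 to 1.19 for the full B box, and summit positions of 11 to 17 bp. The intron difference was 0.514 points in the whole pooled list. The cluster difference was -0.401 points within 100 bp, -6.71 with each summit given to its nearest gene, -3.67 with 85 to 95% unique words and 20.6 on autosomes only. The copy difference was 7.66 points with the 659 strongest peaks, 28.2 in the pooled list and 4.94 with 85 to 95% unique words; it was -35.4 points where copies had to be identical with 20 bp on each side, which leaves 8 genes with a copy and none of them marked. The full B box difference was -0.497 points within 100 bp, -0.121 within 500 bp, -1.50 with each summit given to its nearest gene, -4.37 with the strongest peaks, -4.13 with 85 to 95% unique words and -0.0962 with an anticodon match. The settings on unique words, anticodon match, autosomes, V and the 2 clusters of 6 were added after seeing the data. The causes were not tested. No paired analysis was possible because there is 1 group. Read depth is unknown, 2 replicates share 1 control, and genes with repeated sequence are limited by read placement.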
